A study of Ovis aries with 30 samples.

Results

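Hepatokines are proteins that the liver secretes into blood and that act on other tissues. The genes described here are FGF21, GDF15, INHBE, ANGPTL4, AHSG, FETUB, SELENOP and LECT2, which encode such proteins, and ADIPOR2, which encodes a liver receptor for the fat-cell hormone adiponectin. They were taken by symbol from a list drawn up without a threshold on any measured value. All 9 were found among the 31304 gene rows of the deposited count table, and all 9 were among the 17840 genes that passed the filter on low counts.

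The samples were liver pieces from 30 first-generation lambs of the sheep (Ovis aries), 1 RNA-seq library per lamb. Their mothers were either exposed to biosolids, which are processed sewage sludge used as fertiliser and carry mixed environmental chemicals, or belonged to the control group. Exposure covered the time before conception and the pregnancy. The groups were Biosolids Female (n = 8), Control Female (n = 8), Biosolids Male (n = 7) and Control Male (n = 7). Age, litter, dam and sequencing batch were not labelled, so lambs that shared a dam could not be recognised, and p-values measure the spread between these lambs.

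In background terms, FGF21 is a fasting and nutrient-stress hormone that acts through FGF receptors together with the coreceptor KLB. In mice its liver transcription depends on the fatty-acid sensor PPARA, on the integrated stress response factor ATF4 and on the carbohydrate sensor MLXIPL. GDF15 is a stress hormone sensed by GFRAL in the hindbrain, INHBE encodes the subunit of activin E, and ANGPTL4 inhibits lipoprotein lipase. AHSG (fetuin-A) and FETUB (fetuin-B) are plasma proteins of the cystatin superfamily, SELENOP carries selenium from liver to other tissues, and LECT2 is a hepatocyte-secreted protein that binds the receptor MET.

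The tissue label was checked against liver genes. ALB, the gene for albumin, averaged 67940.3 ± 13635.4 TPM over the 30 lambs, APOA1 averaged 6675.8 ± 1012.1 TPM and TF averaged 3876.7 ± 1053.1 TPM (SD, n = 30 each). TPM (transcripts-per-million) is here a level corrected for exon length and computed with ribosomal RNA rows left out, so that it can be compared between genes. Of the hepatocyte marker list, APOA2 was at 0 counts in all lambs. Among macrophage markers CD68 was at 0 as well, while the other markers in the table gave counts.

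Library totals ran from 24.1 to 42.8 M counts (M, mega) in Biosolids Female lambs and from 29.8 to 39.1 M in Control Female lambs. They ran from 18.7 to 43.3 M in Biosolids Male lambs and from 32.7 to 51.9 M in Control Male lambs. One library stood apart in composition: Biosolids Male 8778 gave 87.5% of its counts to ribosomal RNA rows and left 2.34 M counts for all other genes, against a range of 0.299% to 7.69% in the other 29 libraries. A second went against its sex label, since Control Male 8408 gave 302.4 CPM of an X-chromosome long noncoding RNA, LOC101112291, that ran from 0.02985 to 2.054 CPM in the other 13 males and from 318.0 to 823.5 CPM in the 16 females. CPM is counts-per-million, with library sizes scaled by the TMM method. Where leaving out one of these libraries moved a value or a count by a wide margin, the value without it is given.

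By length-corrected level the members spanned from AHSG, among the most abundant liver transcripts, to FGF21, ADIPOR2 and GDF15 at the low end. AHSG stood at 18822.9 ± 4914.7 TPM (SD, n = 30), with a median rank of 3 among all genes of a lamb. SELENOP followed at 4563.5 ± 1072.4 TPM, and its range did not overlap that of AHSG. FETUB was at 723.9 ± 285.2 TPM and LECT2 at 510.8 ± 192.1 TPM; these neighbours changed places between lambs, with FETUB above LECT2 in 19 of 30.

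LECT2 lay above ANGPTL4 in every lamb, and ANGPTL4, at 163.7 ± 53.7 TPM, lay above INHBE, at 94.4 ± 71.0 TPM, in 23 of 30. INHBE was above FGF21 in all 30 lambs. FGF21 averaged 14.0 ± 21.1 TPM with a median of 7.43 TPM, and ADIPOR2 averaged 11.9 ± 2.74 TPM. FGF21 exceeded ADIPOR2 in 9 lambs only, so the mean puts FGF21 above a gene that most lambs had at a higher level. GDF15 was the lowest, at 4.69 ± 2.36 TPM.

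The members differed in how much lambs varied around their group level. The biological coefficient of variation that edgeR estimated for FGF21 was 101.4%, which placed it at percentile 98.67 of all tested genes. INHBE came next at 74.94% and percentile 96.13, and GDF15 stood at 47.25% and percentile 82.39. FETUB was at 38.96%, LECT2 at 34.02%, ANGPTL4 at 31.78%, AHSG at 28.29%, ADIPOR2 at 25.18% and SELENOP at 23.31%. The common coefficient over all genes was 35.21%, so FGF21 and INHBE varied more between lambs of a group than a typical gene. LECT2, though below the common coefficient, was at percentile 62.91 of all tested genes. Among genes of like level FGF21 and INHBE were both at percentile 99.2, FETUB at 86.91, ANGPTL4 at 82.62 and GDF15 at 80.12. LECT2 was at 77.02 by that measure, ADIPOR2 at 72.23, AHSG at 53.55 and SELENOP at 23.98.

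FGF21 lies on chromosome 14 at 55128460 to 55131389, plus strand, in the sheep assembly ARS-UI_Ramb_v3.0, with 1699 bases of exon. In Biosolids Female lambs its lowest, median and highest values were 1.81, 7.06 and 25.5 CPM, against 0.172, 3.48 and 20.9 CPM in Control Female lambs. In Biosolids Male lambs they were 1.07, 5.33 and 71.9 CPM, against 1.56, 5.28 and 9.95 CPM in Control Male lambs. All 4 groups overlapped, and the male medians differed little. The second highest values were 14.2 CPM in Biosolids Male and 8.45 CPM in Control Female lambs, so 1 lamb made up most of each range. Biosolids Female lambs were spread more evenly, with a second highest value of 22.0 CPM.

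The 5 highest lambs came from 3 groups. Biosolids Male 8762 stood first with 71.9 CPM, which rested on 2299 counts, while the other Biosolids Male lambs had a median of 4.37 CPM. Biosolids Female 8653 and 8714 followed at 25.5 and 22.0 CPM, then Control Female 8353 at 20.9 CPM and Biosolids Male 8735 at 14.2 CPM. At the other end Control Female 8263 had 7 FGF21 counts, or 0.172 CPM with an exact Poisson 95% interval of 0.0693 to 0.355. Biosolids Male 8778 had 3 counts, or 1.07 CPM with an interval of 0.220 to 3.11. These intervals cover counting error only.

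**Figure D1:**
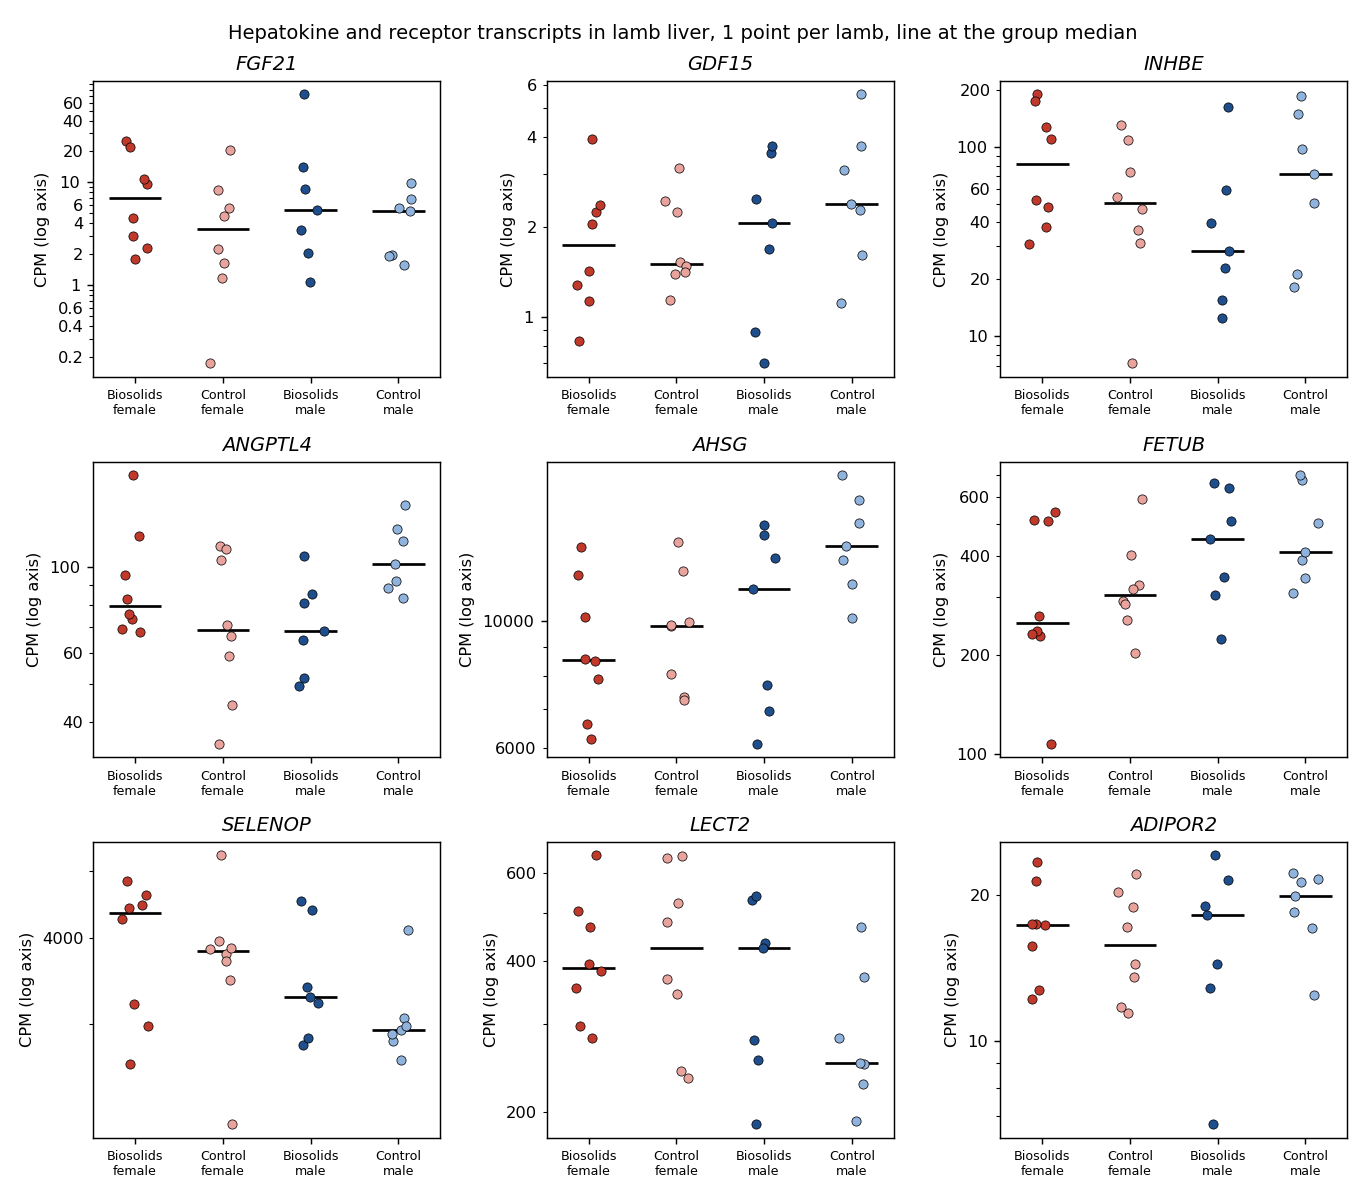
CPM of each of the 9 genes in every lamb, 1 panel per gene on a log axis, 1 point per lamb and a line at each group median, with biosolids lambs left of control lambs of the same sex. FGF21 ran from 0.172 to 71.9 CPM, while SELENOP stayed between 2150.3 and 5262.9 CPM.

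The 2 extreme lambs for FGF21 also stood apart for other genes. Lamb 8762 had the highest ADIPOR2 of all 30 lambs (24.2 CPM), the lowest LECT2 (189.1 CPM) and the highest mean of PPARA target genes and of MLXIPL target genes. Its mean over integrated stress response genes ranked 12 of 30. Lamb 8263, lowest for FGF21, had the highest macrophage and T and NK cell marker means and the lowest hepatocyte marker mean of the 30, and its PPARA target mean ranked 29. Whether cell makeup has a part in its FGF21 value was not tested, and in bulk tissue fewer cells of a type and less RNA per cell cannot be told apart.

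GDF15 lies on chromosome 5 at 4592296 to 4594577, minus strand. It had lowest, median and highest values of 0.828, 1.74 and 3.95 CPM in Biosolids Female lambs, against 1.14, 1.502 and 3.16 CPM in Control Female lambs. The values were 0.698, 2.06 and 3.74 CPM in Biosolids Male lambs, against 1.12, 2.38 and 5.56 CPM in Control Male lambs. The groups overlapped throughout, and the highest value belonged to Control Male 8408, the library that went against its sex label. In the rRNA-rich library 8778 GDF15 rested on 7 counts (2.49 CPM, exact Poisson 95% interval 0.999 to 5.12).

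INHBE lies on chromosome 3 at 162182677 to 162185001, minus strand. Its lowest, median and highest values were 30.8, 81.7 and 190.0 CPM in Biosolids Female lambs, against 7.20, 50.9 and 130.5 CPM in Control Female lambs. The order was the other way in males, with 12.5, 28.3 and 163.3 CPM in Biosolids Male lambs, against 18.3, 72.2 and 186.3 CPM in Control Male lambs. The highest Biosolids Male value was again that of lamb 8762, and the rest of its group had a median of 25.7 CPM. All ranges overlapped.

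ANGPTL4 lies on chromosome 5 at 14749117 to 14755646, plus strand. Its lowest, median and highest values were 68.2, 79.6 and 173.1 CPM in Biosolids Female lambs, against 35.1, 68.8 and 113.4 CPM in Control Female lambs. In males they were 49.3, 68.6 and 106.7 CPM with biosolids, against 83.2, 102.0 and 144.8 CPM in controls. Every Control Male lamb was thus above the median of the Biosolids Male group, but the ranges overlapped between 83.2 and 106.7 CPM, where lamb 8762 was the highest of its group.

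The fetuin genes AHSG and FETUB are neighbours on the minus strand of chromosome 1, at 201378666 to 201385809 and 201331442 to 201346315, 32.4 kb apart. AHSG had lowest, median and highest values of 6202.7, 8546.9 and 13450.6 CPM in Biosolids Female lambs, against 7281.3, 9812.7 and 13738.4 CPM in Control Female lambs. In Biosolids Male lambs they were 6093.2, 11373.1 and 14735.2 CPM, against 10130.9, 13546.9 and 18015.7 CPM in Control Male lambs. The lowest male value was that of the rRNA-rich library 8778. AHSG overlaps LOC105602783 on the plus strand, and since no source used here says whether counting used strand, reads of the pair cannot be told apart, although the partner averaged only 2.22 TPM.

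FETUB ran through 107.7, 249.9 and 543.2 CPM (lowest, median and highest) in Biosolids Female lambs and 202.2, 304.5 and 593.5 CPM in Control Female lambs. It ran through 223.6, 450.4 and 661.0 CPM in Biosolids Male lambs and 307.2, 410.4 and 701.6 CPM in Control Male lambs. Both medians of the males were above both medians of the females, with overlap of every pair of groups.

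SELENOP lies on chromosome 16 at 31962728 to 31972534, plus strand. Its lowest, median and highest values were 2628.7, 4338.3 and 4827.5 CPM in Biosolids Female lambs, against 2150.3, 3823.5 and 5262.9 CPM in Control Female lambs. They were 2796.1, 3282.5 and 4520.3 CPM in Biosolids Male lambs, against 2666.3, 2946.6 and 4105.3 CPM in Control Male lambs. The highest Control Male value was that of lamb 8364, which also had the highest mean of acute phase genes of all 30 lambs and the lowest AHSG, ANGPTL4 and ADIPOR2 of its group.

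LECT2 lies on chromosome 5 at 45015368 to 45028769, minus strand. It had lowest, median and highest values of 281.4, 388.6 and 651.5 CPM in Biosolids Female lambs, against 234.5, 424.6 and 648.3 CPM in Control Female lambs. The values were 189.1, 426.3 and 541.6 CPM in Biosolids Male lambs, against 192.0, 251.2 and 468.4 CPM in Control Male lambs. Control Male lambs had the lowest median of the 4 groups, although the lowest single lamb was Biosolids Male 8762.

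ADIPOR2 lies on chromosome 3 at 214023226 to 214063563, plus strand. Its lowest, median and highest values were 12.2, 17.4 and 23.4 CPM in Biosolids Female lambs, against 11.4, 15.8 and 22.1 CPM in Control Female lambs. They were 6.74, 18.2 and 24.2 CPM in Biosolids Male lambs, against 12.5, 19.9 and 22.2 CPM in Control Male lambs. The groups overlapped, and the lowest value came from library 8778 and rested on 19 counts (exact Poisson 95% interval 4.06 to 10.53 CPM).

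The study asked whether exposure of the mother changed the liver transcriptome of lambs of each sex. Tested with the quasi-likelihood method of edgeR, with Benjamini-Hochberg adjusted p-values over all 17840 genes, none of the 9 genes passed an adjusted p of 0.05 in females or in males. The background was the same: the share of all genes called was 0.0% in females and 0.0% in males. At an unadjusted p under 0.05 edgeR listed 652 genes in females (3.65%) and 970 genes in males (5.44%), and DESeq2 listed 686 and 1067. At an adjusted p under 0.05 DESeq2 called 0 genes in females and 4 in males, none of them a member. Within each of the 4 pairs of groups compared, all 9 members overlapped; groups without overlap were found for 0.0% of all genes for exposure in females, 0.0561% for exposure in males, 0.0673% for sex in exposed lambs and 0.213% for sex in controls.

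In females the fitted mean was higher with biosolids for 6 members and lower for 3, against 45.9% and 54.1% of all tested genes, and no member reached an unadjusted p of 0.05. The log2 fold change of FGF21, biosolids over control, was 0.83 ± 0.77 (SE) with a 95% interval of -0.76 to 2.41, an edgeR p of 0.295 and an adjusted p of 1. Depending on which lamb was left out it lay between 0.46 without Biosolids Female 8653 and 1.55 without Control Female 8353. INHBE had 0.66 ± 0.57 and ANGPTL4 0.33 ± 0.23, and the other 6 members lay between -0.09 and 0.09. ANGPTL4 came to 0.15 without Biosolids Female 8731.

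In males 3 members had a higher fitted mean with biosolids and 6 a lower one, against 51.3% and 48.7% of all genes. ANGPTL4 had the smallest p of the 9: its log2 fold change was -0.57 ± 0.24 (SE), a ratio of 0.675, at an edgeR p of 0.0257 and an adjusted p of 0.816. The group means were 72.5 ± 20.2 CPM with biosolids and 107.6 ± 22.4 CPM in controls (SD). An exact permutation test of ANGPTL4 on log2 CPM, two-sided and unadjusted, gave p = 0.00932. That test was run for all 9 members in each sex, and this was the smallest p it gave. The edgeR p was 0.055 without library 8778, where the log2 fold change was -0.50, and leaving out any single male kept it between -0.69 and -0.48.

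FGF21 in males rested on 1 lamb. With all lambs its log2 fold change was 1.71 ± 0.84 (SE, 95% interval -0.02 to 3.44), with an edgeR p of 0.0525 and an adjusted p of 0.816. Its group means were 15.2 ± 25.4 CPM with biosolids and 4.75 ± 3.13 CPM in controls (SD). Without lamb 8762 it was 0.35 ± 0.75, with an edgeR p of 0.651. Without library 8778 it was 1.89, with an edgeR p of 0.0354 and an adjusted p of 0.995. The difference of mean log2 CPM, in which a single high lamb counts for less, was 0.69, and its exact permutation p was 0.454. Limma's voom with sample weights, which give atypical libraries less weight, put the log2 fold change at 0.73.

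INHBE moved the other way when that lamb was left out. Its log2 fold change in males was -0.79 ± 0.61 (SE) with all lambs, at an edgeR p of 0.203 and an adjusted p of 0.829. It was -1.51 ± 0.59 without lamb 8762, at an edgeR p of 0.0166 and an adjusted p of 0.496, and -0.48 without Control Male 8428. AHSG had -0.39 ± 0.22 with all lambs, -0.49 without lamb 8762 and -0.30 without library 8778. GDF15 had -0.40 ± 0.37, and -0.15 without Control Male 8408. LECT2 had 0.38 ± 0.26, SELENOP 0.19 ± 0.18 and FETUB -0.09 ± 0.30. ADIPOR2 had -0.16 ± 0.19 with all lambs, -0.05 without library 8778 and -0.27 without lamb 8762. None of these 4 genes had an unadjusted p under 0.05, and SELENOP was at 0.11 without Biosolids Male 8735.

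**Figure D2:**
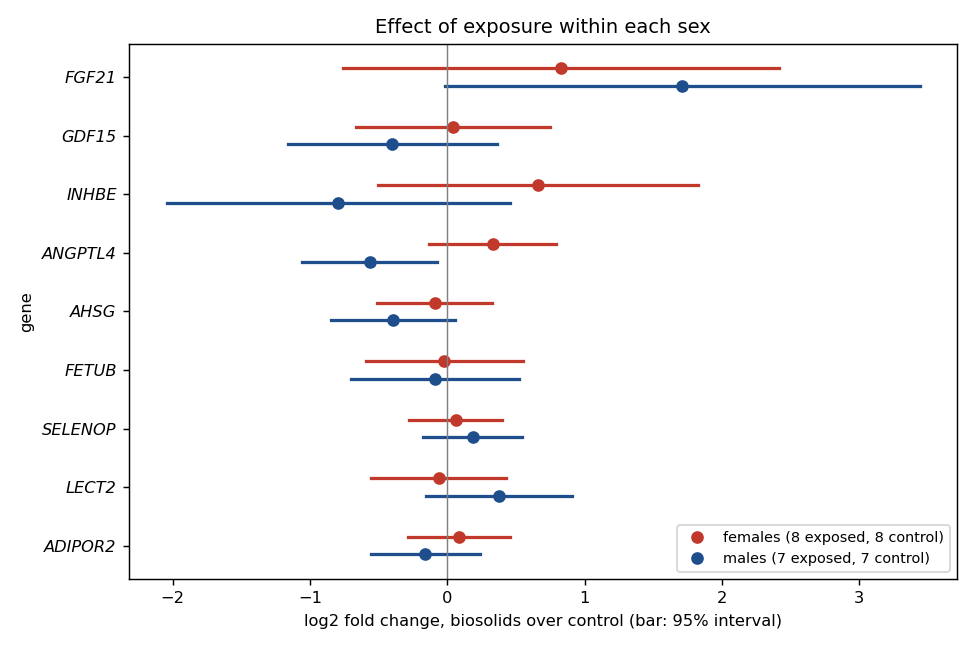
Log2 fold change, biosolids over control, of each gene in females and in males, as points with 95% intervals. Intervals of all genes in females span 0, and in males the interval of ANGPTL4, -1.06 to -0.07, lies below 0 before adjustment.

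**Figure D3:**
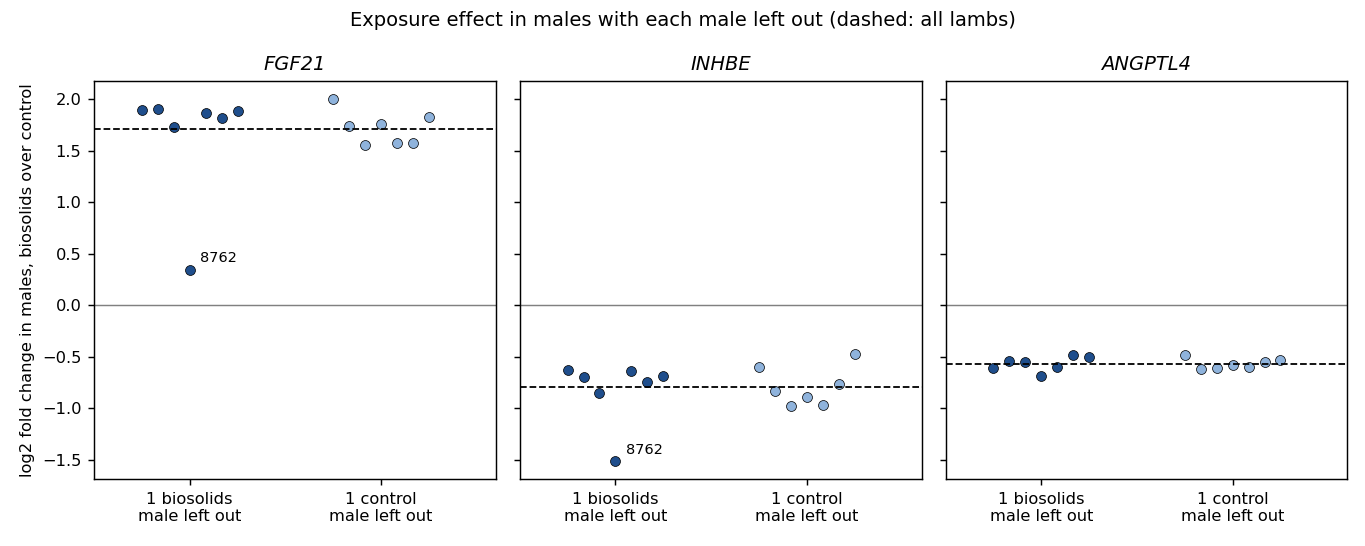
Log2 fold change in males, biosolids over control, of FGF21, INHBE and ANGPTL4, recomputed with each male left out in turn (points), beside the value with all lambs (dashed line). Without lamb 8762 FGF21 drops to 0.35 and INHBE to -1.51, while ANGPTL4 stays between -0.69 and -0.48.

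Averaged over both sexes, 3 members had a higher fitted mean with biosolids and 6 a lower one, against 48.9% and 51.1% of all genes. FGF21 was at 1.27 ± 0.57 (log2 fold change and SE), at an edgeR p of 0.0349 and an adjusted p of 0.943. It was the single member of the 9 with an unadjusted p under 0.05 in this comparison, in which 4.3% of all genes had one, and 0.0% of genes passed after adjustment. With each lamb left out in turn the edgeR p of FGF21 ran from 0.00689 to 0.256, and the smallest adjusted p was 0.656. Without library 8778 its log2 fold change was 1.35 with an edgeR p of 0.025. Without lamb 8762 the value was 0.59 with an edgeR p of 0.256. The overall difference for FGF21 therefore depended on the same animal as in males.

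Whether exposure acted differently in the sexes was tested as an interaction, the male minus the female log2 fold change. It was above 0 for 3 members and below 0 for 6, against 53.4% and 46.6% of all genes. ANGPTL4 had the smallest p of the members, at -0.90 ± 0.33 (SE), with an edgeR p of 0.0108 and an adjusted p of 0.951. INHBE had -1.45 ± 0.83 and FGF21 had 0.88 ± 1.13. Without lamb 8762 ANGPTL4 came to -1.02 and INHBE to -2.17, with an edgeR adjusted p of 0.77 for both, and FGF21 turned to -0.48. No gene of the table passed for the interaction by edgeR (0.0%), with 3.63% under an unadjusted p of 0.05. At an adjusted p under 0.05 DESeq2 called 1 gene, which was no member.

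Sex itself was compared within each exposure group, as male over female. Among exposed lambs 4 members were higher and 5 lower in males, against 50.0% and 50.0% of all genes. No member reached an unadjusted edgeR p of 0.05, against 4.85% of all genes, and 0.0953% of all genes passed after adjustment. INHBE had a log2 fold change of -0.98 ± 0.60, and ANGPTL4 had -0.39 ± 0.23 (SE), which was -0.21 without Biosolids Female 8731. Without lamb 8762 INHBE was at -1.69 with an edgeR p of 0.00742 and an adjusted p of 0.932.

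Among controls 6 members were higher and 3 lower in males, against 45.4% and 54.6% of all genes. Of the 9, 3 had an unadjusted p under 0.05, where 18.9% of all genes did, and none passed after adjustment, where 0.0841% of genes did. AHSG was at 0.50 ± 0.21 (edgeR adjusted p = 0.232), LECT2 at -0.58 ± 0.25 (adjusted p = 0.236) and ANGPTL4 at 0.51 ± 0.23 (adjusted p = 0.246), all as log2 of male over female with SE. Without Control Male 8408, whose sex label was in doubt, they were at 0.46, -0.73 and 0.54. GDF15 was at 0.61 with that library and 0.36 without it. The smallest adjusted p of any member in any comparison and setting was 0.0664, for ANGPTL4 between control males and females by limma's voom with sample weights.

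The partner genes of FGF21 were present in liver. Over the 30 lambs FGFR3 averaged 80.7 ± 26.5 TPM, FGFR2 46.2 ± 9.61, FGFR4 31.6 ± 10.7, the coreceptor KLB 22.5 ± 6.38 and FGFR1 4.13 ± 0.73 (SD). FGFR1, which pairs with KLB as the main FGF21 receptor of fat and brain in mice, was thus the lowest of these. With biosolids, 3 of the 5 had a higher fitted mean in females and 2 of the 5 in males, and none passed. The female count was 1 of 5 without Control Female 8263.

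The 3 inputs to FGF21 transcription named above were described through lists of their target genes. Of 22 tested integrated stress response genes, 10 were higher and 12 lower with biosolids in females, and 9 were higher and 13 lower in males, none with an unadjusted p under 0.05. Without Control Female 8263, 14 were higher and 8 lower in females. Of 8 carbohydrate-response genes, 4 were higher in females and 2 in males, and the male count was 4 without library 8778 and also without Control Male 8408. KLF10, a target of MLXIPL, averaged 36.7 ± 16.2 CPM in Biosolids Female lambs and 27.3 ± 4.26 CPM in Control Female lambs. In males it averaged 26.2 ± 8.00 CPM with biosolids and 35.8 ± 5.50 CPM in controls (SD), and its adjusted p by edgeR was 1 and 0.816 in the 2 sexes.

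Most genes in a list of PPARA and its targets in fatty acid oxidation and ketone production lay on opposite sides in the sexes. PPARA itself did not: it averaged 280.7 ± 93.9 CPM in Biosolids Female lambs and 296.0 ± 94.1 CPM in Control Female lambs (SD). In males it averaged 312.7 ± 92.3 CPM with biosolids and 364.0 ± 94.6 CPM in controls. In females 17 of the 20 listed genes had a higher fitted mean with biosolids. Their median log2 fold change was 0.148, beside 45.9% and -0.015 for all tested genes. In males 17 of 20 had a lower one, with a median of -0.157, beside 48.7% and 0.009 for all genes. In males 18 were lower without library 8778, at a median of -0.088, and 19 without lamb 8762, at -0.238. In females 15 were higher without Control Female 8263, at a median of 0.074. Hepatocyte markers moved beside the list in males, where 9 of 10 were lower at a median of -0.146, and less so in females, where 6 of 10 were lower at a median of -0.019. Their part in the list's counts was not tested. None of the 20 passed in either sex, and these genes share regulators and lambs, so the count describes the list only.

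For the interaction 18 of the 20 were below 0, or 16 without Control Female 8263, and none passed. PDK4, a kinase that holds back glucose oxidation in fasting, averaged 225.5 ± 64.9 CPM in Biosolids Female lambs and 167.1 ± 63.8 CPM in Control Female lambs (SD; edgeR adjusted p = 1). PLIN2, a coat protein of lipid droplets, averaged 92.0 ± 39.3 CPM and 59.1 ± 33.3 CPM in the same 2 groups. CREB3L3, which in mice works with PPARA on the FGF21 gene, averaged 492.3 ± 171.4 CPM in Biosolids Male lambs and 627.8 ± 160.2 CPM in Control Male lambs (adjusted p by edgeR 0.816).

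ANGPTL4 was set beside the rest of its family and the lipases. Of 12 tested angiopoietin-like, lipase and cofactor genes, 7 were higher in females with biosolids, or 5 without Control Female 8263, and 5 in males, and none passed. ANGPTL8, a family member made in liver and fat, averaged 59.6 ± 24.7 TPM, and LPL, the gene for lipoprotein lipase, was at 0.456 ± 0.228 TPM in liver (SD, n = 30 each).

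Activin and GDF genes were described with INHBE and GDF15. The GDF15 receptor GFRAL had 0 counts in liver. INHBC, the closest relative of INHBE, averaged 72.1 ± 32.9 TPM, INHBA 5.34 and INHBB 1.15 TPM. Of 14 tested ligands, inhibitors and receptors, 5 were higher in females and 7 in males with biosolids, and none passed. The type I receptor ACVR1C had the smallest p in females, at 0.284 ± 0.189 CPM with biosolids and 0.582 ± 0.428 CPM in controls (SD; edgeR adjusted p = 1), a level close to 0.

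Among relatives of the fetuins, HRG averaged 925.1 ± 377.7 TPM and KNG1 743.2 ± 95.9 TPM, close to the level of FETUB. Of 5 tested, 1 was higher in females, or 2 without Control Female 8263, and 2 were higher in males with biosolids. Of 21 selenoproteins and parts of the selenocysteine machinery, 13 were higher in females and 10 in males, or 12 without Control Male 8408, and none passed. SELENON, a selenoprotein of the endoplasmic reticulum, averaged 39.1 ± 10.04 CPM in Biosolids Male lambs and 50.5 ± 6.18 CPM in Control Male lambs (SD; edgeR adjusted p = 0.816).

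ADIPOR1, the other adiponectin receptor, averaged 63.8 ± 10.53 TPM, above ADIPOR2, and ADIPOQ, the gene for adiponectin itself, was at 0.084 TPM and was not tested. Of 11 genes of the adiponectin axis, 7 were higher in females and 8 in males with biosolids. Of 3 LECT2 receptors in the table, 1 and 2 were higher. LECT2 is a beta-catenin target in mouse liver, and of 11 such targets 5 were higher in females, or 3 without Control Female 8263, and 2 in males, or 3 without library 8778. No gene of these lists passed.

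Of 19 other liver-secreted hormones and carriers, 6 were higher in females and 7 in males with biosolids, again with none past the threshold. THPO, the platelet growth factor, averaged 7.62 ± 1.33 CPM in Biosolids Male lambs and 9.66 ± 0.57 CPM in Control Male lambs. MST1, the ligand of the RON receptor, averaged 207.9 ± 60.7 and 279.5 ± 30.3 CPM in the same groups (SD; edgeR adjusted p = 0.816 for both). For 14 acute phase genes, 11 were higher in females, beside 45.9% of all genes, and 0 in males, beside 51.3%. The male median was -0.466, and 6 of the 14 were under an unadjusted edgeR p of 0.05, beside 5.44% of all genes. Control males stood high for this list: all 14 were above control females, beside 45.4% of all genes. Of the 14, 13 were under an unadjusted edgeR p of 0.05, beside 18.9% of all genes, and the median was 0.664. LCN2, a siderophore-binding protein of that list, averaged 9.53 ± 4.04 CPM in Biosolids Male lambs and 25.3 ± 10.8 CPM in Control Male lambs (adjusted p by edgeR 0.144). It was the one gene of the lists that passed between control males and control females, at a log2 fold change of 1.43 ± 0.28 (SE; edgeR adjusted p = 0.0216).

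Markers of other cells were set beside these counts. Summed macrophage markers ranged from 1336.6 to 2642.3 TPM in Biosolids Female lambs and from 1571.1 to 5009.6 TPM in Control Female lambs. The ranges were 1224.8 to 2717.4 TPM in Biosolids Male lambs and 1269.2 to 2663.2 TPM in Control Male lambs. All 6 tested T and NK cell markers had a lower fitted mean with biosolids in females and in males, none of them past the threshold. In males 4 of 6 were lower without Control Male 8408, at a median log2 fold change of -0.073 against -0.213 with it, and 5 of 6 without lamb 8762. Their summed level ranged from 32.4 to 85.1 TPM in Biosolids Female lambs, against 38.7 to 200.8 TPM in Control Female lambs, and from 33.3 to 72.8 TPM in Biosolids Male lambs, against 31.7 to 83.6 TPM in Control Male lambs. Stellate cell markers were higher with biosolids for 8 of 9 in females (median 0.262) and 5 of 9 in males. Cholangiocyte markers were higher for 7 of 10 in females (median 0.402) and 6 of 10 in males, or 4 of 10 without lamb 8762. Macrophage markers were higher for 2 of 7 in females and in males, or 4 of 7 in males without Control Male 8408, and endothelial markers for 2 of 7 in females and 3 of 7 in males. No marker passed for exposure, and the part of cell makeup in the member values was not tested.

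Across lambs the members fell into sets that varied together. Of 36 pairs, 9 had an adjusted permutation p under 0.05 by both Pearson's r and Spearman's rho over the 30 lambs. FGF21 was related to INHBE alone, with r = 0.489 and rho = 0.519 (permutation p adjusted over 36 pairs, 0.027 and 0.0163). Without lambs 8263 and 8762, the ones farthest from the median of FGF21, r was 0.507. FGF21 and GDF15, which are often measured together as mitochondrial stress hormones, were not related, with r = -0.043 and rho = -0.01.

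A second set was formed by AHSG, FETUB, ADIPOR2, SELENOP, LECT2 and ANGPTL4. AHSG went with FETUB (r = 0.495, rho = 0.527) and with ADIPOR2 (r = 0.672, rho = 0.674), and SELENOP went with LECT2 (r = 0.685, rho = 0.675). ANGPTL4 and LECT2 were opposed, with r = -0.723 and rho = -0.732. ANGPTL4 went with ADIPOR2 (r = 0.518, rho = 0.577), and LECT2 and ADIPOR2 were opposed (r = -0.534, rho = -0.592). The last passing pairs were ANGPTL4 with SELENOP (r = -0.536, rho = -0.535) and SELENOP with ADIPOR2 (r = -0.451, rho = -0.646). With lambs set to their deviations from group means, 6 of the pairs passed. Those that did not were AHSG with FETUB (r = 0.393, rho = 0.389), ANGPTL4 with SELENOP (r = -0.553, rho = -0.436) and SELENOP with ADIPOR2 (r = -0.435, rho = -0.522).

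These relations moved with a component shared by much of the transcriptome. The first principal component of 9020 well-expressed genes held 33.9% of the variance between lambs. Its correlation was 0.822 with ADIPOR2, -0.778 with LECT2, 0.740 with AHSG and -0.667 with SELENOP, but 0.255 with INHBE and 0.171 with FGF21. With that component removed, a step chosen after seeing the data, none of the 36 pairs passed. FGF21 with INHBE was at r = 0.467 (adjusted permutation p = 0.167), and ANGPTL4 with LECT2 at r = -0.54.

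**Figure D4:**
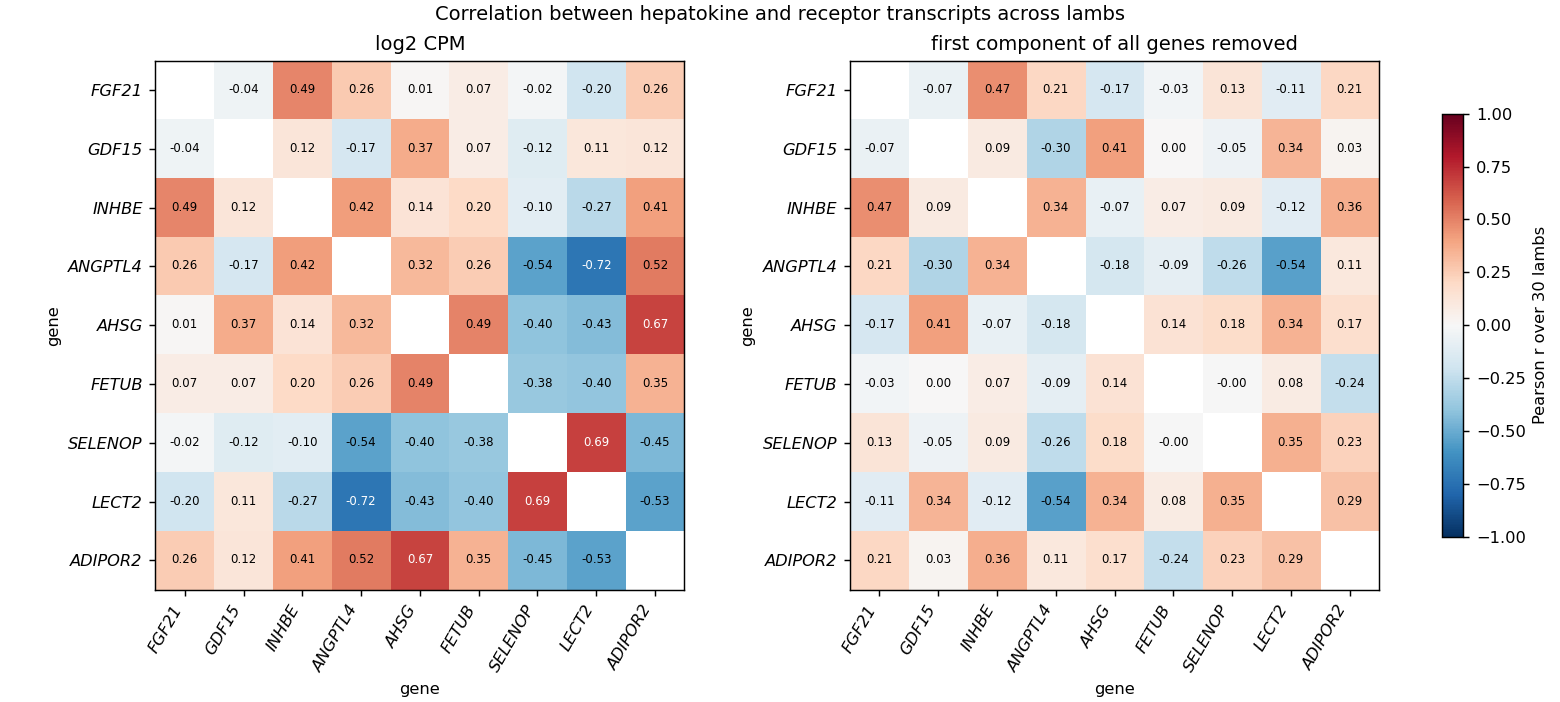
Pearson r over 30 lambs for each pair of the 9 genes, on log2 CPM (left) and with the first component of all genes removed (right). ANGPTL4 with LECT2 changes from -0.72 to -0.54 between the panels, and FGF21 with INHBE from 0.49 to 0.47.

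Members were also related to the mean log2 CPM of 6 lists, 54 relations in all, of which 23 passed by both measures. INHBE followed the PPARA target list with r = 0.631 and rho = 0.631 (adjusted permutation p = 0.00193 and 0.00173). This was the single relation of the 54 that also passed by both measures with the first component removed, at r = 0.691 and rho = 0.635 (adjusted permutation p = 0.00216 and 0.0103). ANGPTL4, itself a PPARA target in mice and not in the list, had r = 0.700 and rho = 0.725 with it (adjusted permutation p = 0.000324 for both).

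For FGF21 the relation to the same list passed by r only. Its r was 0.478 (adjusted permutation p = 0.0218), its rho was 0.400 (adjusted permutation p = 0.0589), and r was 0.354 without the 2 lambs farthest out on the list mean. With the first component removed it was at r = 0.540 and rho = 0.524 (adjusted permutation p = 0.0516 and 0.039), and ANGPTL4 was at r = 0.501 and rho = 0.493 (adjusted permutation p = 0.0649 and 0.0481). PLIN2 and CREB3L3 were the genes of the list closest to FGF21 (rho = 0.57 and 0.55), and they were also closest to INHBE (rho = 0.68 for both). ACSL1 and CPT1A, which activate and import long-chain fatty acids for oxidation, were closest to ANGPTL4 (rho = 0.73 and 0.69).

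None of the 3 stress-linked members followed the mean of the integrated stress response list. The correlation with it was r = -0.118 and rho = -0.107 for FGF21, r = 0.273 and rho = 0.235 for GDF15, and r = 0.293 and rho = 0.273 for INHBE, none with an adjusted p under 0.05. Single genes of the list came closer: INHBE had rho = 0.57 with SLC3A2 and 0.56 with TRIB3. GDF15 had 0.56 and FGF21 0.30 with SLC7A5. The lowest values were -0.31 with PSPH for INHBE, and -0.33 and -0.37 with DDIT4 for GDF15 and FGF21. AHSG (r = 0.453, rho = 0.456) and ADIPOR2 (r = 0.514, rho = 0.622) passed with the list mean by both measures, though not with the first component removed. LECT2 was opposed to the PPARA list (r = -0.753, rho = -0.748), and ADIPOR2 followed it (r = 0.681, rho = 0.741).

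**Figure D5:**
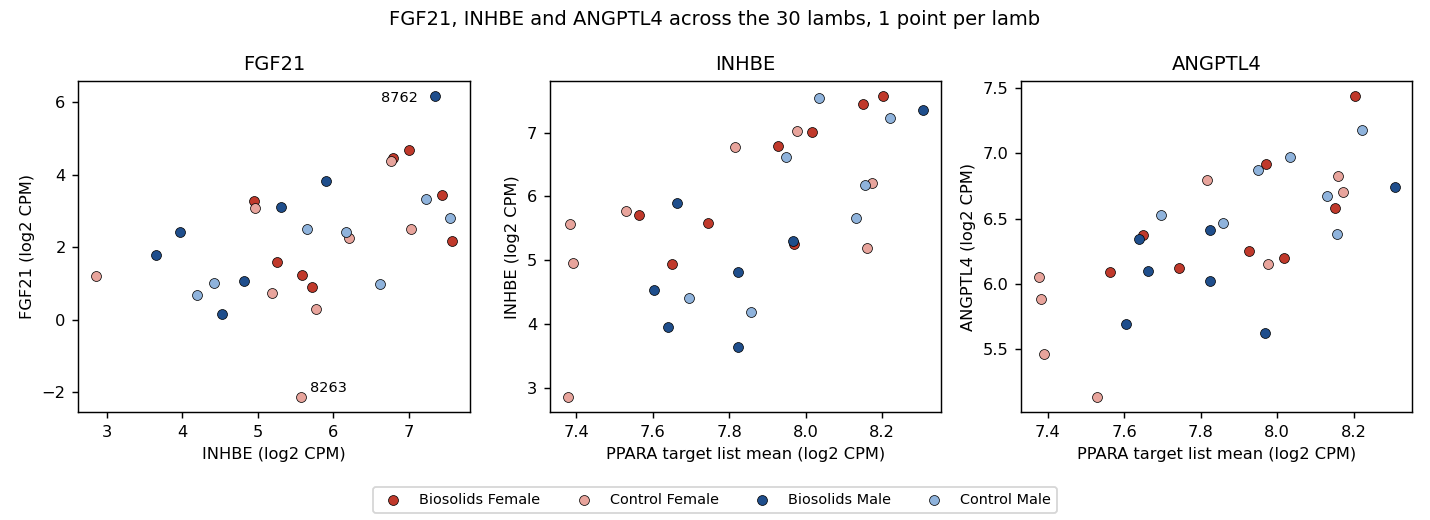
Log2 CPM of FGF21 against INHBE, and of INHBE and ANGPTL4 against the mean log2 CPM of 20 PPARA target genes, with 1 point per lamb coloured by group. Lambs 8762 and 8263 mark the top and bottom of FGF21, and r is 0.489, 0.631 and 0.700 in the panels from left to right.

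Markers and depth moved with several of these genes. LECT2 went with the macrophage marker mean (r = 0.688, rho = 0.693) and against the hepatocyte marker mean (r = -0.649, rho = -0.681), while AHSG went with the hepatocyte marker mean (r = 0.717, rho = 0.724). FGF21 was opposed to the T and NK cell marker mean, with r = -0.582 (adjusted permutation p = 0.00871) and rho = -0.451 (adjusted permutation p = 0.0599). Lamb 8263 was the lowest for FGF21 and the highest for this marker mean. Without the 2 lambs farthest from the median of the marker mean, r was -0.452. Counts outside ribosomal RNA correlated with ADIPOR2 (r = 0.662, rho = 0.495), FETUB (r = 0.555, rho = 0.604) and AHSG (r = 0.543, rho = 0.502). Without library 8778 r was 0.428 for ADIPOR2, 0.578 for FETUB and 0.464 for AHSG. Adjusted p-values here are over 72 relations, and the part of cell makeup or depth in the member correlations was not tested.

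The genes whose pattern over the 30 lambs was most like each member were listed by Spearman's rho among 13536 genes with a symbol, as a description. For FGF21 they were PTPN18 (0.702), PAQR9 (0.699), DZIP1 (0.682), PIP5K1B (0.673) and ZBTB9 (0.666). For INHBE they were LIPG, an endothelial-type lipase (0.787), ANGPTL7 (0.767) and SLC25A1, the mitochondrial citrate carrier (0.741). For GDF15 they were RND1 (0.753), KIAA2012 (0.706) and SLC17A2 (0.701).

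The other members were treated in the same way. The highest values were 0.944 for ADIPOR2 with RANBP10, followed by TBCD (0.936) and SLC27A5, a bile acid ligase (0.905). LECT2 was closest to PCMT1 (0.931), PSMB3, a proteasome subunit (0.896), and BLVRB, biliverdin reductase B (0.884). AHSG was closest to LMTK2 (0.902), DCAF12 (0.899) and PLD3 (0.886), and SELENOP to YIPF6 (0.842), MANEA (0.827) and RAMAC (0.814). ANGPTL4 was closest to LPCAT3, a phospholipid-remodelling enzyme (0.821), EGLN3, an oxygen-sensing hydroxylase (0.799), and KLHL36 (0.797), and FETUB to GPC6 (0.728), PRKDC (0.718) and CUX2 (0.711).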

How the data were processed

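The authors deposited 1 table of whole-number counts per gene for 30 liver libraries. Per the labels' protocols, RNA was extracted from frozen tissue with an RNeasy kit, and TruSeq RNA libraries were sequenced on a NovaSeq. The submitters' processing notes name featureCounts 1.5.0-p3, STAR, Trimmomatic, MultiQC and FastQC, without roles, settings or strand use. The table's exon length column was used for TPM. All 30 columns carried a sample's name, and 0 columns were left without one; 7 genes broken over 25 lines were joined. Coordinates were identical to ARS-UI_Ramb_v3.0 for 28855 of 28855 genes compared.

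Counts were tested with edgeR 4.0.16 in R 4.3.3 (filterByExpr, TMM, robust quasi-likelihood, 4 group means, 26 residual degrees of freedom), adjusted over 17840 genes. Log2 CPM used a prior count of 2. Alternatives were DESeq2 1.42.0, voom with sample weights in limma 3.58.1, RLE scaling, no filter, at least 1 CPM in 15 libraries, ribosomal RNA rows left out, a fit within each sex, exact permutation tests (scipy 1.17.1) and each lamb left out. Relations used 100000 permutations. Removing the first component, recounting lists and repeating depth relations without single lambs, and the log2 scale for outlying lambs were chosen after seeing the data. The tests were checked on simulated data.

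The members and all gene lists were chosen with earlier results of these data known. All 9 members are named in every group, from each list at most the 4 genes with the smallest p, and as most alike the 5 (FGF21) or 3 genes of highest rho. From the PPARA and integrated stress response lists, genes of highest or lowest rho with a member are named as well. Receptors and relatives given by level were picked by role. Genes absent from the table were not analysed here. No sequences are shown because sequence tables were not used here. The values of 1 list gene that passed no exposure test are not reported here.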

Additional observations from a re-analysis of the deposited data

Results flagged for a closer look

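In each group the distance of the highest or lowest lamb to its neighbour was divided by the range of the group and compared with Dixon's 95% critical value, for 9 genes in 4 groups, 36 tests in all. Chance flags about 1 in 20 such groups, when values are normally distributed, and 4 of the 36 were past the critical value on CPM. CPM is skewed to high values. On log2 CPM, a scale chosen after seeing the data, 2 of the 36 were past it.

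Biosolids Male 8762 was the highest lamb of its group for FGF21 at 71.9 CPM (71.85 before rounding), with a gap of 0.815 of the range against a critical value of 0.568. The same lamb was past it for INHBE at 163.3 CPM, with 0.687. Both genes thus had 1 lamb apart in the same group, and the values without that lamb stand with the male comparison. Control Female 8353 stood apart for FGF21 at 20.87 CPM, with 0.6 against 0.526. On log2 CPM the gaps were 0.389 for FGF21 and 0.392 for INHBE in lamb 8762 and 0.199 for FGF21 in lamb 8353, all below the critical value. Control Male 8364 stood apart for SELENOP at 4105.3 CPM, with 0.726, and with 0.68 on log2 CPM. The other group past the critical value on log2 CPM was SELENOP in Control Female lambs, where lamb 8245 was the lowest, with 0.535.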

How the results depend on the processing

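No paired analysis was possible because the groups share no lamb numbers. No member passed an adjusted p of 0.05 under any setting run. Of the recomputed values classed against their main value, 1933 were classed as the same and 56 as reversed in sign. The numbers of genes, pairs and relations that passed did change with the setting. By DESeq2 the numbers of genes called for exposure were 4 in males, 4 over both sexes and 1 for the interaction, where edgeR called 0 each; for sex in controls DESeq2 called 53 and voom 64, against 15. With at least 1 CPM in 15 libraries, 7 genes passed for sex in exposed lambs (17 otherwise) and 3 for sex in controls. Leaving out each lamb gave 12 to 21 genes for sex in exposed lambs and 10 to 23 for sex in controls, the highest without Control Female 8245. Passing pairs of members numbered 0 with the first component removed. Passing relations with lists numbered 14 on deviations from group means, 21 without library 8778 and 1 with the component removed.

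Voom turned FGF21 to -0.341 for the interaction, -0.203 for sex in exposed lambs and 0.138 for sex in controls, FETUB to 0.051 for the interaction, LECT2 to 0.073 in females and ADIPOR2 to 0.117 for sex in exposed lambs. The permutation difference of GDF15 in females was -0.028. With each lamb left out, FGF21 ran from -0.482 to 1.253 (interaction), -0.721 to 0.989 (sex in exposed lambs) and -0.527 to 0.457 (sex in controls). GDF15 ran from -0.195 to 0.198 in females and -0.058 to 0.395 for sex in exposed lambs, and INHBE from -0.426 to 0.092 over both sexes. FETUB ran from -0.163 to 0.149 in females, -0.197 to 0.031 in males, -0.12 to 0.03 over both sexes and -0.236 to 0.087 for the interaction. SELENOP and LECT2 in females ran from -0.023 to 0.147 and -0.181 to 0.04. ADIPOR2 ran from -0.091 to 0.02 over both sexes and -0.124 to 0.079 for sex in exposed lambs. Apart from the lambs named, the cause was not tested. Depth limits GDF15, FGF21 and ADIPOR2 in library 8778, where they had 7, 3 and 19 counts.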
